A study of Mus musculus with 40 samples.

Results

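Transcripts of 10 endothelial and angiogenesis genes were followed in bulk RNA from mouse brown fat: Pecam1, Cdh5, Kdr, Flt1, Flt4, Tek, Esm1, Apln, Plvap and Efnb2. They were taken by symbol from a table of 52636 Ensembl genes, and each symbol matched 1 row. The tissue came from 40 male C57BL/6 mice of Jackson Laboratories, 5 in each of 8 groups; the age is given as 10 to 12 weeks in the series text and as 10 to 14 weeks in the sample protocol. Control mice had received 1 intraperitoneal dose of an isotype antibody against ragweed (40 mg/kg), and Jag antibody mice had received blocking antibodies to the Notch ligands Jag1 and Jag2 (20 mg/kg each). Both kinds were collected after 15 h, 5 d and 7 d, and both also at 7 d after daily thyroid hormone from day 2 (T4 at 1 ug/g and T3 at 0.05 ug/g body weight). The labels name no altered allele, the antibodies and hormones reached the whole animal, and a group at 1 time is not the same animals as a group at another. Each library is 1 mouse by its label, with no word on litter, cage or extraction day.

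Endothelial cells line all blood and lymph vessels. Vascular endothelial growth factor acts on them through the receptors encoded by Kdr, Flt1 and Flt4, angiopoietins act through Tek, and adhesion at their junctions depends on the products of Cdh5 and Pecam1. In a growing vessel a leading tip cell secretes apelin (Apln) and endocan (Esm1), while the ligand Dll4 and the ligand Jag1 act in opposite ways on Notch in the neighbouring cells. Brown fat is densely supplied with capillaries, and the vessel network of this tissue is known to grow and shrink with its thermogenic activity.

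Of the 10 genes, 7 had a promoter in the RefSeq table for GRCm38.p6. The 250 bases before the RefSeq start are printed, 5′ to 3′ on the gene's strand, for 2 genes that were higher with hormone under the control antibody (Efnb2 and Kdr) and for 2 that were not called there (Apln and Tek). Capitals mark a match, on either strand, to any of 4 motifs searched: TGGGAA (the core bound by RBPJ, the DNA-binding partner of Notch), CAGGAAG (ETS factors), ACGTG (hypoxia response core) and AGGTCA (a half-site of nuclear receptors). The windows are chr8:8661243-8661492 for Efnb2, chr5:75978456-75978705 for Kdr and chrX:48034854-48035103 for Apln, all on the minus strand, and chr4:94739039-94739288 on the plus strand for Tek.
Efnb2: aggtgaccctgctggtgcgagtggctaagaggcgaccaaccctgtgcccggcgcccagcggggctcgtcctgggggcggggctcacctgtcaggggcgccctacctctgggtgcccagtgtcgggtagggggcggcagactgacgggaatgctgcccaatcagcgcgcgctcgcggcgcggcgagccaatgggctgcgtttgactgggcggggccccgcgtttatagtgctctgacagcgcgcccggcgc
Kdr: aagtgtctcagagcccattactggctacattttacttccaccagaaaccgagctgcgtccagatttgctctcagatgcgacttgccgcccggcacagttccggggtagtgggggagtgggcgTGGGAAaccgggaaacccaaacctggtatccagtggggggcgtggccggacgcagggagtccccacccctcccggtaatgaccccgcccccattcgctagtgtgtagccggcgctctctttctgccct
Apln: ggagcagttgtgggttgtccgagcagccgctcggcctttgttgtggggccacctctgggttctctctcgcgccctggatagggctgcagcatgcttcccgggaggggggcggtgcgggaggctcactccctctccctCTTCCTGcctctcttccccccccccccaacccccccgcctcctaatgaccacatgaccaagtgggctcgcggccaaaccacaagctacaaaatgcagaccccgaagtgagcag
Tek: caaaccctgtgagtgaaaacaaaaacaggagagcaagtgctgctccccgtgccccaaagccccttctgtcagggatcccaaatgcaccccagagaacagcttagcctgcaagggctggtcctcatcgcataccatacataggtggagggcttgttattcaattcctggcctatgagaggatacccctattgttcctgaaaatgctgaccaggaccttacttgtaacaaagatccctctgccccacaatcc

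Among the 7 windows, the RBPJ core was found in Kdr alone, with its first base 128 bases before the start. The ETS motif was found in Apln alone, on the opposite strand, where it reads CTTCCTG, at 113 bases before the start. The other 2 motifs had no match in the 7 windows. Over all 32851 promoters of the table at this length, 21.6% held TGGGAA, 10.8% CAGGAAG, 16.6% ACGTG and 14% AGGTCA, so these letters are common and a match describes the sequence only. The 7 windows differed in base composition: 72% of the bases were G or C in Efnb2, 70.4% in Flt1, 68.4% in Flt4, 65.2% in Apln, 61.6% in Kdr, 51.2% in Tek and 44% in Esm1. The median over all promoters was 52.4%, so Tek and Esm1 lay below it and the other 5 above it.

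Library totals ran from 12217623 to 36511893 counts with a median of 18949808, and the 80 pairs of mice within groups all differed by far more than counting error (lowest chi-square per degree of freedom 17.9). All 6 brown adipocyte markers examined (Adipoq, Plin1, Ucp1, Cidea, Dio2 and Lipe) had counts in every group. Skeletal muscle RNA was uneven: the summed level of 8 muscle genes ran from 0.878 to 175926 CPM (counts relative to the library total, scaled by TMM), and it was 1018 or more in all 5 control mice at 5 d against 43.9 or less in all 5 Jag antibody mice at 5 d. Mitochondrial transcripts made up 9.72% to 28.7% of the counts. The slope of a library's log2 CPM on log2 exonic length, measured against each gene's mean over the libraries, ran from -0.48 to 0.219, with the lowest values in control mouse 4 at 7 d and control mice 5 and 2 at 5 d. Control mice 2 and 3 at 15 h stood apart from the other 3 of their group in myeloid transcripts (summed CPM of 8 genes 4580 and 2763, against 386 to 784), and some results that turn on these libraries are given with and without them.

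Levels between genes are compared per kilobase of exon (RPKM, from GENCODE M21 lengths on GRCm38). Cdh5 (chr8:104101625-104144511, plus strand), encoding the junction protein VE-cadherin, had the highest mean over the 40 mice at 35.1 RPKM. Pecam1 (chr11:106654217-106750628, minus), another adhesion protein of endothelial junctions, followed at 26.6 RPKM. Both are thus readily measured, with at least 561 counts for Cdh5 and 816 for Pecam1 in every library.

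Among the receptors, Kdr (chr5:75932827-75978458, minus), the main signalling receptor for VEGF-A, had a mean of 14.0 RPKM. Tek (chr4:94739289-94874976, plus), the angiopoietin receptor Tie2, had 10.4 RPKM. Flt1 (chr5:147561604-147726011, minus), whose product binds VEGF-A and limits what reaches Kdr, had 6.88 RPKM. Flt4 (chr11:49609263-49652739, plus), the VEGF-C receptor that marks lymphatic vessels and sprouting blood vessels, was the lowest of the 4 receptors at 1.01 RPKM.

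Plvap (chr8:71497765-71511752, minus), which forms the diaphragms of endothelial fenestrae and caveolae, had a mean of 6.02 RPKM. Apln (chrX:48025146-48034853, minus), the secreted apelin peptide, had 3.85 RPKM. Efnb2 (chr8:8617434-8661242, minus), the membrane ligand ephrin-B2 of arterial endothelium and a known target of Notch signalling, had 2.08 RPKM. Esm1 (chr13:113209659-113218098, plus), the tip-cell product endocan, was at 0.0704 RPKM. All 10 are protein-coding genes whose exons overlap no exon of another annotated gene.

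Esm1 was close to the limit of detection and is the single gene of the 10 that did not pass the low-count filter. It had 125 counts over the 40 libraries and 0 in 17 of them, where 0 counts allow up to 0.0799 to 0.38 CPM depending on the library (3 counts of the total, counting error only). The 5 control mice at 15 h had 2, 36, 15, 3 and 0 counts, so mice 2 and 3 held 51 of all 125. The 5 control mice had 1, 0, 2, 2 and 0 counts at 5 d and 0, 1, 0, 0 and 0 counts at 7 d. With hormone the counts were 0, 3, 4, 4 and 8 in control mice and 4, 4, 4, 5 and 1 in Jag antibody mice. When the filter was removed, edgeR's test called Esm1 lower than at 15 h in control mice at 5 d (adjusted p = 0.0187) and at 7 d (adjusted p = 0.00779), where 2 mice carry nearly all of the 15 h counts. The hormone difference in control mice was not called (adjusted p = 0.139).

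**Figure D1:**
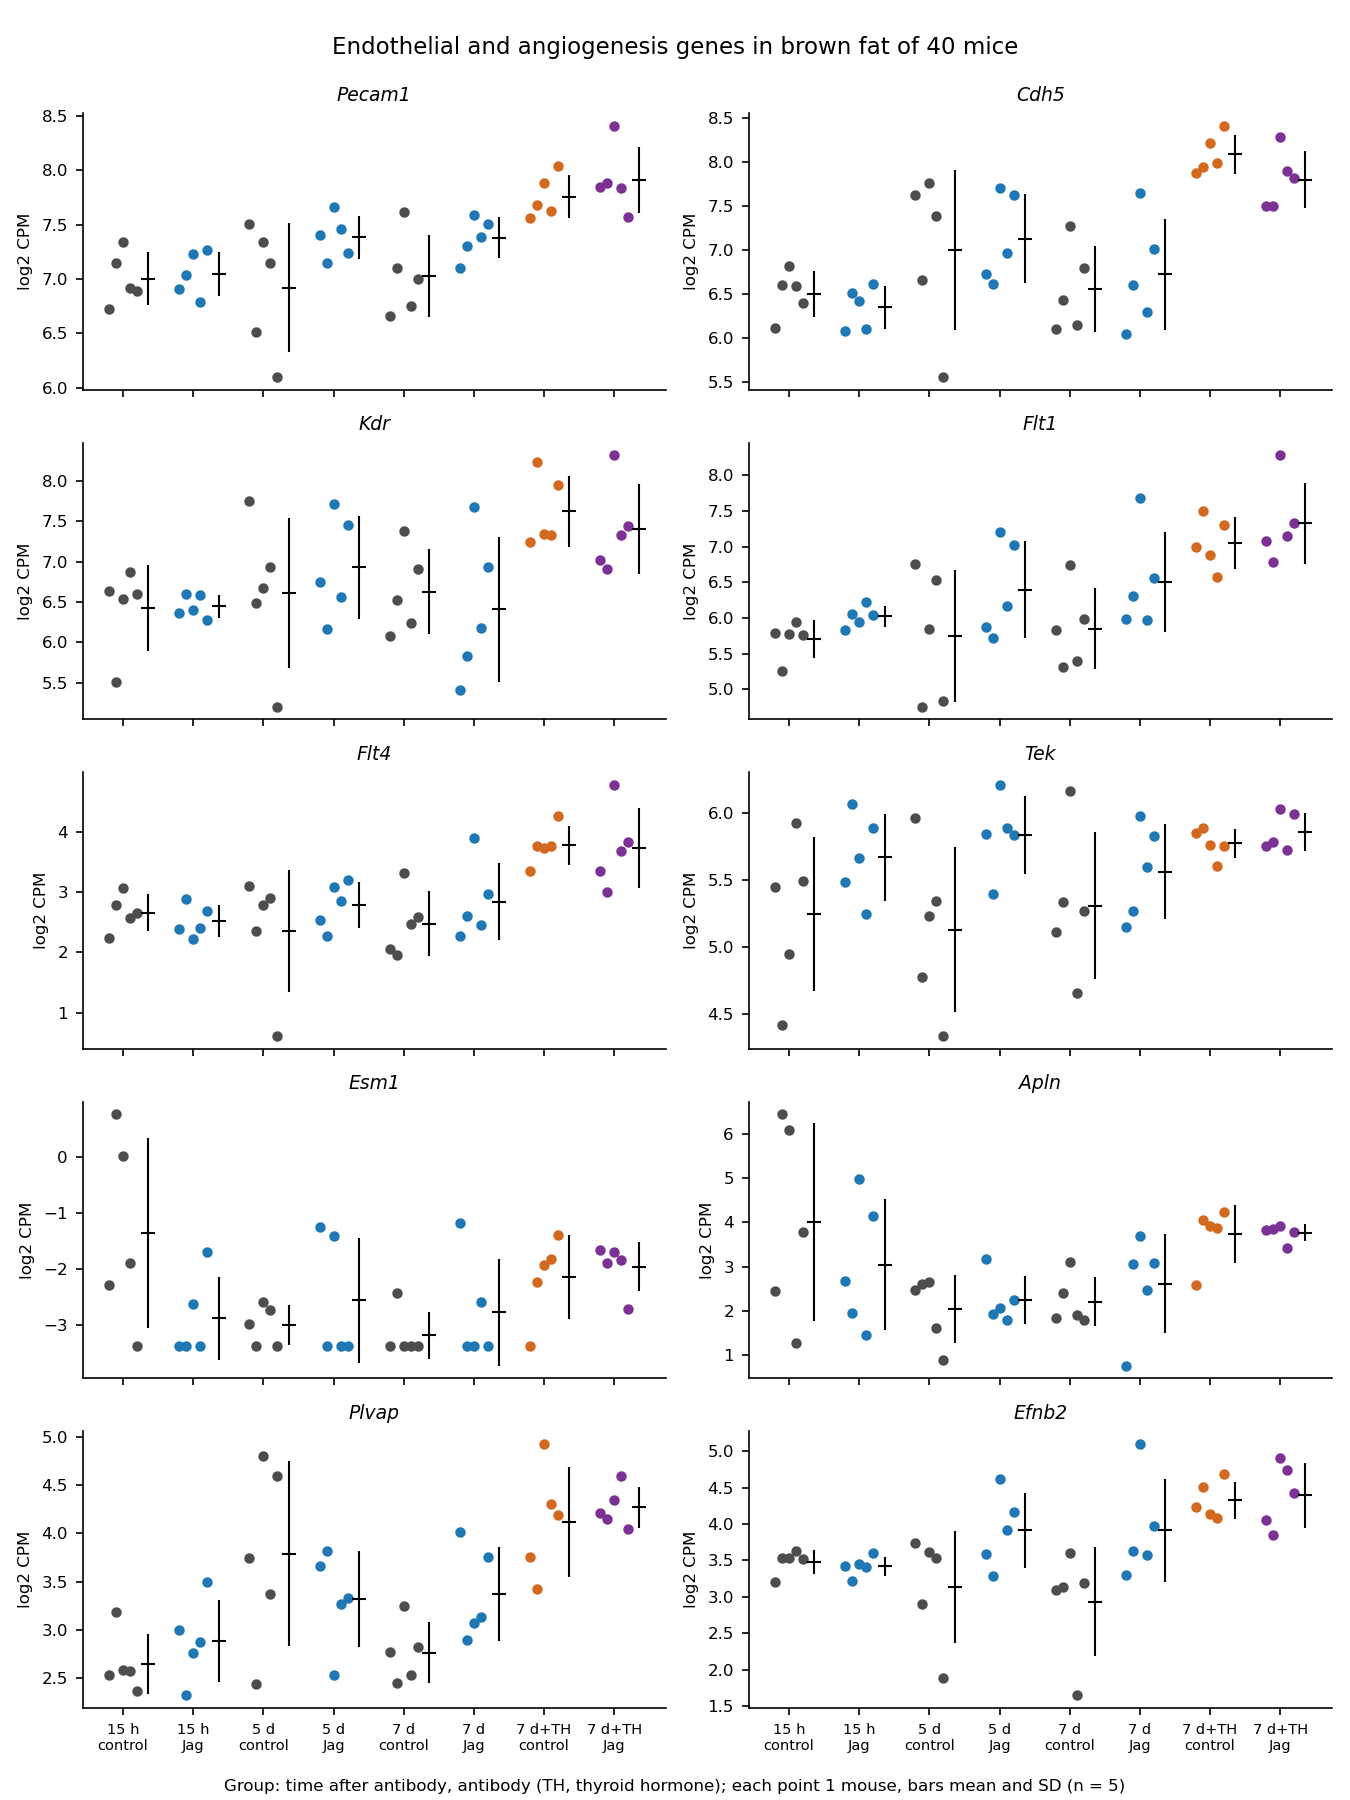
Level of each of the 10 genes in each of the 40 mice as log2 CPM (vertical axes, scales differ between panels), by group from 15 h to 7 d with hormone (TH); points are mice, the horizontal mark is the group mean and the bar 1 SD (n = 5). The 2 hormone groups are the highest for 7 genes, and Apln and Esm1 have 2 mice far above the rest in the 15 h control group.

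Most of the genes had their highest group means with hormone, while the order of the other groups, and the lowest group, differed between genes. The highest mean was in a hormone group for 8 of the 10, and the 2 highest means were the 2 hormone groups for 7 (Pecam1, Cdh5, Kdr, Flt1, Flt4, Plvap and Efnb2). For Cdh5 the means in log2 CPM ran from 8.09 (control with hormone) and 7.80 (Jag antibodies with hormone) to 7.13 in the next group, Jag antibodies at 5 d, and to 6.35 at the lowest, Jag antibodies at 15 h. The step between the hormone groups and the next group was the single one of its 7 steps larger than the within-group SD of 0.50. Flt4 had such a step at the same place (Jag antibodies with hormone against Jag antibodies at 7 d), and Pecam1 had 1 below its 2 hormone groups and 1 between Jag antibodies at 7 d and at 15 h. In the other 7 genes no neighbouring pair of groups in the order differed by more than the within-group SD. That SD was smallest for Pecam1 (0.32) and largest for Apln (1.13 on the log2 scale).

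With thyroid hormone at 7 d, 7 of the 9 genes tested were higher than without it under the control antibody: Cdh5, Plvap, Efnb2, Flt4, Flt1, Kdr and Pecam1, by 1.63 to 2.79 times. Apln and Tek were not called, and none was lower. A gene is called here when its adjusted p is under 0.05 by edgeR's quasi-likelihood test on all 17079 genes that passed the filter, and adjusted p-values below are of that test unless another is named. In this comparison 43.2% of all tested genes were called, 20.3% as higher and 22.9% as lower, so a call by itself is common. The median log2 difference was 1.25 for the 9 genes and 0.04 for all tested genes.

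Cdh5 measured 68.9, 86.4, 154, 71.2 and 111 CPM in the 5 control mice without hormone, and 235, 246, 296, 254 and 340 CPM in the 5 with hormone. The lowest mouse with hormone lay above the highest without, and the difference was 1.48 on the log2 scale (SE 0.30, adjusted p = 0.000277). Plvap measured 6.72, 5.36, 9.40, 5.70 and 6.98 CPM without hormone and 13.4, 10.7, 30.3, 19.6 and 18.1 CPM with it. Its groups did not overlap either, with mouse 3 highest in both groups (log2 difference 1.43, SE 0.32, adjusted p = 0.000696).

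Efnb2 measured 8.43, 8.69, 12.0, 3.04 and 9.04 CPM without hormone and 18.7, 22.6, 17.5, 16.9 and 25.5 CPM with it. Mouse 4 without hormone was the lowest of all 40, and the groups were apart without it too (log2 difference 1.29, SE 0.32, adjusted p = 0.00158). Flt4 measured 4.05, 3.78, 9.86, 5.45 and 5.93 CPM without hormone and 10.1, 13.6, 13.2, 13.4 and 19.2 CPM with it. The margin between its groups was narrow, 9.86 against 10.1 CPM (log2 difference 1.25, SE 0.35, adjusted p = 0.00403). Groups were apart in this way, higher with hormone, for these 4 of the 9 genes and for 14.6% of all tested genes.

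For the other VEGF receptors the groups overlapped. Flt1 measured 56.8, 39.8, 107, 42.0 and 63.1 CPM without hormone and 128, 180, 118, 95.0 and 158 CPM with it (log2 difference 1.14, SE 0.36, adjusted p = 0.0109). Kdr measured 67.5, 91.6, 167, 75.6 and 120 CPM without and 151, 300, 162, 161 and 247 CPM with it (0.97, SE 0.38, adjusted p = 0.0375). In both genes mouse 3 without hormone reached into the range of the hormone group, and in Kdr the call was lost in 5 of the 10 fits that each left out 1 mouse (control mice 1, 2 and 4 without hormone, 2 and 5 with it; highest adjusted p = 0.111). It was also lost without the 3 libraries of lowest length slope (0.86, adjusted p = 0.0679).

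Pecam1 rose the least of the 7. It measured 101, 137, 197, 107 and 128 CPM without hormone and 189, 205, 235, 197 and 263 CPM with it, with mouse 3 again the point of overlap (log2 difference 0.70, SE 0.20, adjusted p = 0.00548). Tek, the other receptor, measured 34.4, 40.3, 71.5, 25.1 and 38.3 CPM without and 57.6, 59.2, 54.2, 48.6 and 53.8 CPM with hormone (0.38, SE 0.25, adjusted p = 0.227). Its spread was wide without hormone and narrow with it, and without mouse 3 lacking hormone, the highest, the Tek difference was 0.66 and was called (adjusted p = 0.0316). Apln measured 3.47, 5.18, 8.55, 3.67 and 3.35 CPM without and 5.90, 16.6, 15.1, 14.5 and 18.7 CPM with hormone. Mouse 1 with hormone was low, and the difference of 1.54 (SE 0.66) had an adjusted p of 0.0577; without that mouse Apln was called, as it was without control mouse 3 lacking hormone (lowest adjusted p = 0.0379).

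**Figure D2:**
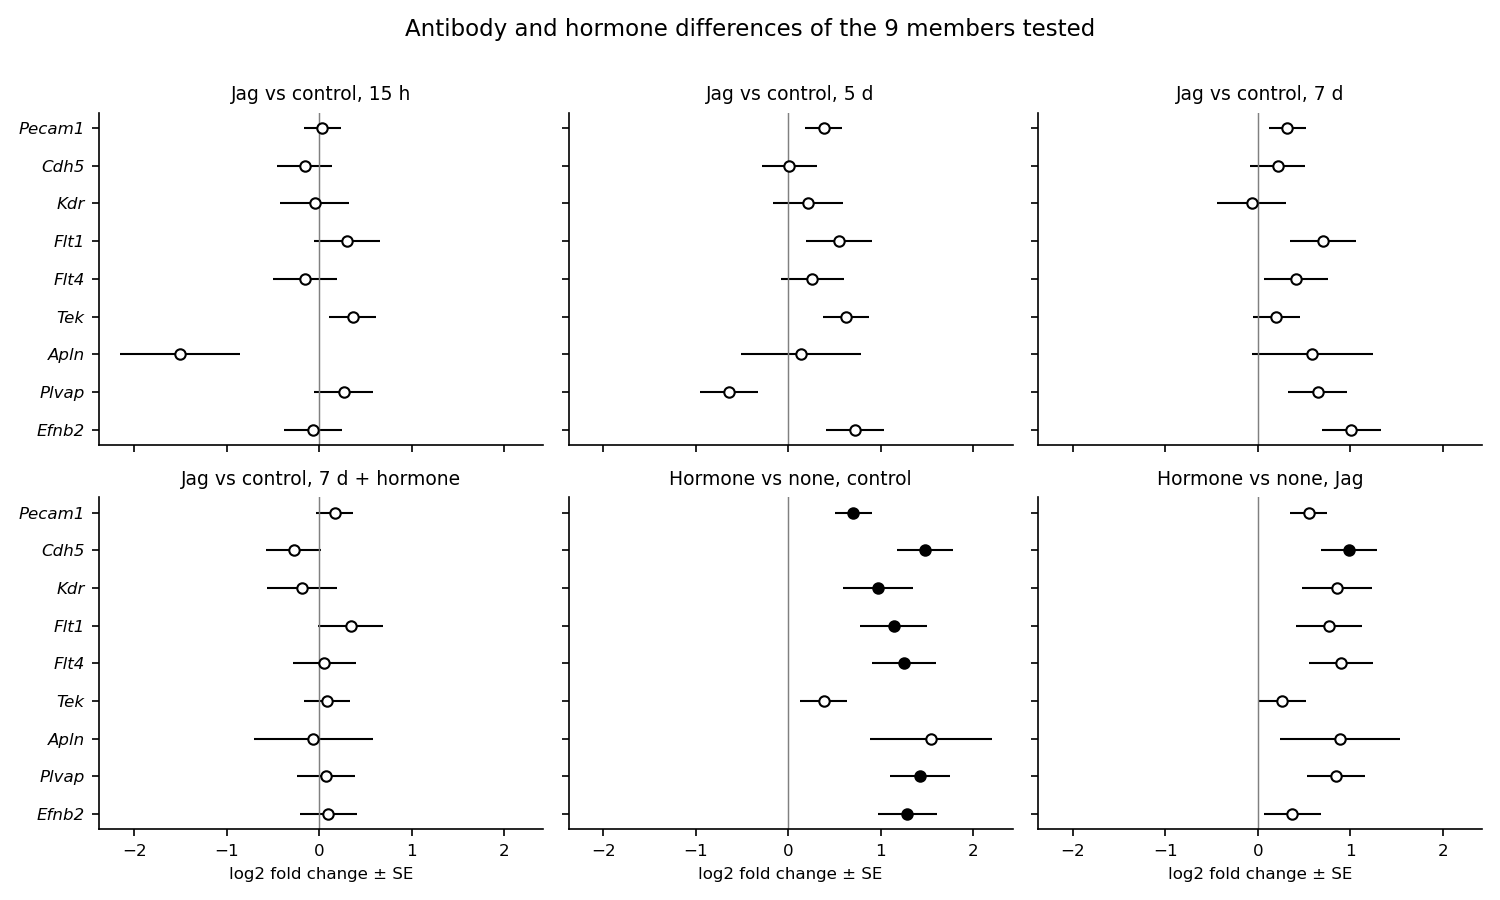
Log2 fold change (horizontal axis) of the 9 genes tested in the 4 antibody comparisons and the 2 hormone comparisons; points are edgeR estimates, bars 1 SE, filled points adjusted p under 0.05. The hormone panels lie to the right of 0 for all 9 genes, with 7 filled under the control antibody and 1 under the Jag antibodies.

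In bulk tissue a change in the number of cells of a type and a change in RNA per cell cannot be told apart, and other measures moved with the hormone in these mice. Over 5 control mice with hormone and 5 without, the summed CPM of 6 brown adipocyte markers was 6054 to 10404 against 14517 to 32238. That of 8 macrophage and myeloid markers was 656 to 1293 against 155 to 361, that of 6 fibroblast markers 2190 to 4506 against 665 to 1270, and all of these markers had counts in both groups. Single markers called were 3 of 6 adipocyte genes, all lower, and 5 of 8 myeloid, 4 of 6 fibroblast and 6 of 6 proliferation genes, all higher (proliferation genes by 2.63 to 5.02 on the log2 scale). Each of the 4 sums differed by the exact two-sided permutation test at the smallest p that 5 against 5 mice allow (0.00794, adjusted 0.0345 over 100 such tests). Mitochondrial transcripts were 12.8% ± 2.03 of the counts in the hormone group and 20.0% ± 4.05 in the other (SD, n = 5, exact permutation p = 0.00794). The part of these measures in the endothelial differences was not tested.

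The length slope also moved with the hormone. It averaged 0.155 ± 0.0783 with hormone and -0.202 ± 0.173 without (SD, n = 5, exact p = 0.00794, adjusted 0.0345), so longer transcripts had relatively more counts in the hormone group. Most of the 9 genes are long: their median exonic length is 6228 bases, against 3810 for the tested genes. With each library's trends on length and GC content taken out as offsets, 4 of the 9 were called higher (Cdh5 1.33, Plvap 1.75, Flt4 0.73 and Efnb2 0.89 on the log2 scale), where 16.5% of all tested genes were called higher. Pecam1 (0.33, adjusted p = 0.098), Kdr (0.43, adjusted p = 0.291) and Flt1 (0.48, adjusted p = 0.141) kept a positive difference and were no longer called. Cdh5, Plvap, Flt4 and Efnb2 were called in each of the 9 alternative fits and in each of the 10 that left out 1 mouse.

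**Figure D3:**
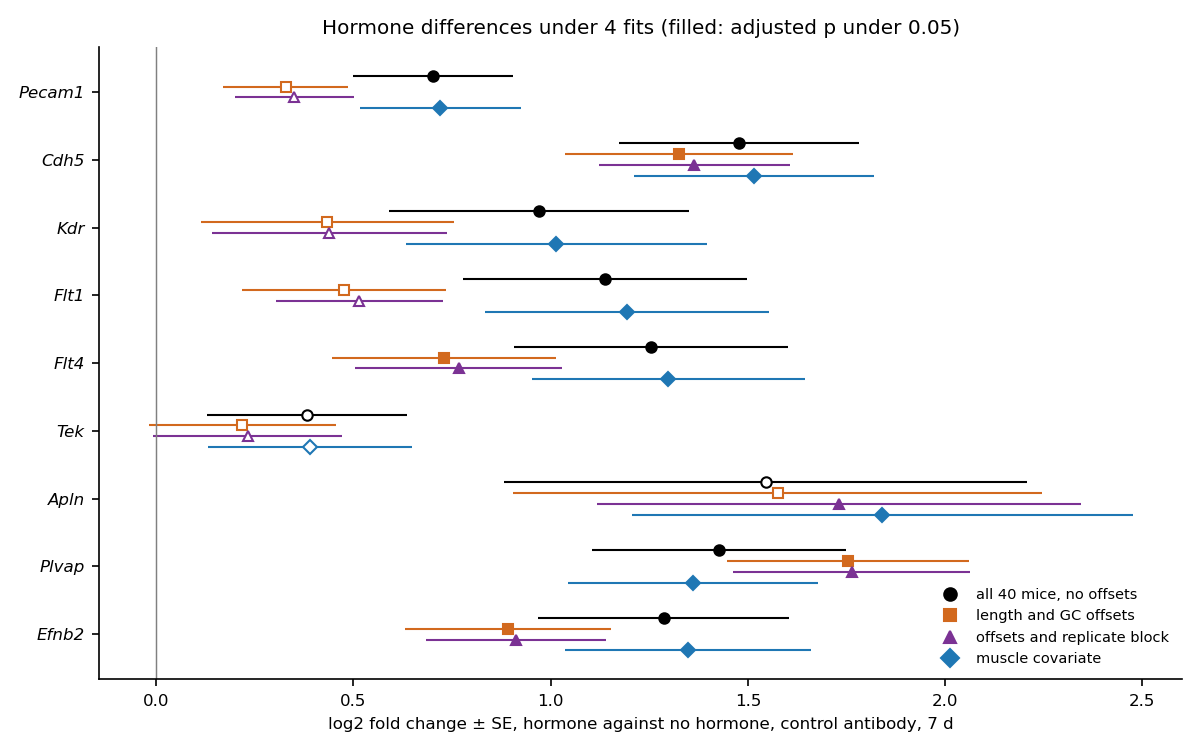
Log2 fold change with hormone under the control antibody at 7 d (horizontal axis) for the 9 genes tested under 4 fits: the 40-mouse model, length and GC offsets, offsets with the replicate number as a block, and a muscle score as covariate; bars are 1 SE and filled markers have adjusted p under 0.05. Flt1, Kdr and Pecam1 lie closer to 0 with the offsets and lose the call, and Plvap lies further from 0.

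Under the Jag antibodies the same 9 genes were all higher on average with hormone, and 1 was called: Cdh5. The median difference of the 9 was 0.85, against -0.04 for all tested genes, of which 9.5% were called in either direction, 4.29% as higher and 5.21% as lower. Cdh5 measured 66.0, 97.4, 201, 78.8 and 129 CPM in Jag antibody mice 6 to 10 without hormone and 180, 180, 310, 239 and 226 CPM in mice 6 to 10 with it (log2 difference 0.99, SE 0.30, adjusted p = 0.0317). Mouse 8 without hormone reached into the hormone group, and the call was lost in 6 of 10 fits that each left out 1 mouse (mice 6, 7 and 9 without hormone, 8, 9 and 10 with it; highest adjusted p = 0.0945).

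Plvap was the single gene of the 9 whose groups were apart in Jag antibody mice, at 16.1, 7.35, 8.29, 8.69 and 13.4 CPM without hormone and 18.4, 17.6, 20.3, 24.1 and 16.4 CPM with it. Groups were apart and higher for 5.23% of all tested genes. Its difference of 0.85 (SE 0.32) had an adjusted p of 0.0802, and with length and GC offsets it was 1.21 (adjusted p = 0.0075), where 4.93% of all tested genes were called higher. Flt4 (0.90, adjusted p = 0.0853), Kdr (0.86, 0.139), Flt1 (0.77, 0.159), Pecam1 (0.55, 0.0738), Apln (0.89, 0.379), Efnb2 (0.38, 0.446) and Tek (0.27, 0.516) were not called. Kdr, Flt1, Flt4 and Efnb2 were each highest without hormone in mouse 8, at 203, 204, 14.8 and 34.2 CPM, all within the range of the hormone group or above it. Without that mouse Kdr (adjusted p = 0.0298), Flt1 (0.0308) and Flt4 (0.0186) were called beside Cdh5, and Plvap was called without mouse 6 (0.0435). Beside these values, the summed CPM of the fibroblast markers was 798 to 2075 with hormone against 452 to 917 without (exact permutation p = 0.0159, adjusted 0.0567), and that of the myeloid markers 503 to 2017 against 222 to 852 (exact permutation p = 0.0317, adjusted 0.0962). The 6 proliferation genes were all called higher, and their sum was 12.96 to 70.9 against 2.28 to 9.69 CPM (exact permutation p = 0.00794, adjusted 0.0345). The length slope was 0.104 ± 0.0523 against -0.0573 ± 0.0694 (SD, n = 5, exact p = 0.00794, adjusted 0.0345); the part of these measures was not tested.

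Whether the hormone difference depended on the antibody was tested directly as an interaction at 7 d. None of the 9 genes was called, by edgeR or by DESeq2, and 1 had an unadjusted p under 0.05. The share of all tested genes under that unadjusted threshold is not given here. Of all tested genes, 0.00586% were called. The 9 estimates were all negative, from -0.11 for Kdr to -0.91 for Efnb2 (SE 0.44, adjusted p = 0.397), with a median of -0.37 beside -0.07 for all tested genes. A smaller hormone difference under the Jag antibodies was therefore not shown for any of them.

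The Jag antibodies changed none of the 9 genes past the threshold at any time. Of all tested genes, 1.14% were called in either direction at 15 h and 8.02% at 5 d. The share was 2.5% for the 7 d mice and 1.14% for those given hormone. DESeq2 called none of the 9 except Efnb2 in the 7 d mice. The number of the 9 with an unadjusted p under 0.05 was 1, 3, 2 and 0 in that order. The shares above are at the adjusted threshold, and none at the unadjusted threshold is given here. These numbers therefore describe the 9 genes only. The median log2 differences of the 9 were -0.05, 0.26, 0.41 and 0.07, and those of all tested genes -0.04, 0.04, 0.05 and -0.02.

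Efnb2 came closest, at 7 d without hormone. It measured 8.43, 8.69, 12.0, 3.04 and 9.04 CPM in control mice 1 to 5 and 9.74, 12.2, 34.2, 11.8 and 15.7 CPM in Jag antibody mice 6 to 10. The groups overlapped, control mouse 4 was the lowest and Jag antibody mouse 8 the highest of the 40, and the difference of 1.01 (SE 0.32) had an adjusted p of 0.0727. DESeq2 called it (1.00, adjusted p = 0.0296), and so did edgeR's test without control mouse 3 or without Jag antibody mouse 9 (lowest adjusted p = 0.0361). Without Jag antibody mouse 8 the difference was 0.58 (adjusted p = 0.315), and without the 3 libraries of lowest length slope, control mouse 4 among them, it was 0.81 (adjusted p = 0.106). At 5 d Efnb2 measured 13.2, 7.37, 12.1, 11.5 and 3.61 CPM in control and 11.9, 9.63, 24.4, 15.1 and 17.9 CPM in Jag antibody mice (0.72, SE 0.31, adjusted p = 0.156). At 15 h the groups were nearly level, at 9.09 to 12.2 and 9.25 to 12.0 CPM (-0.07, SE 0.31, adjusted p = 0.983), and with hormone at 7 d they were 16.9 to 25.5 and 14.3 to 29.8 CPM (0.10, SE 0.31, adjusted p = 0.938). The antibody difference at 7 d minus that at 15 h was 1.08 for Efnb2 (SE 0.44, adjusted p = 0.207) and was not called. This test called 1.31% of all tested genes. Beside the Efnb2 values at 7 d, the summed CPM of 8 pericyte and smooth muscle markers was 218 to 424 with the Jag antibodies and 620 to 1119 without, and its part was not tested.

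Tek at 5 d measured 62.3, 27.2, 37.4, 40.5 and 20.1 CPM in control and 57.2, 41.9, 73.9, 59.1 and 57.1 CPM in Jag antibody mice (0.62, SE 0.25, adjusted p = 0.124). Control mouse 1 was the highest of its group, and without it Tek was called (0.85, adjusted p = 0.0216), while without the 3 libraries of lowest length slope, control mice 2 and 5 among them, the difference was 0.30 (adjusted p = 0.507). Plvap had opposite signs at 5 d (-0.64, SE 0.32, adjusted p = 0.217) and 7 d (0.65, SE 0.32, adjusted p = 0.238). At 5 d it measured 13.3, 5.33, 27.8, 10.2 and 24.1 CPM in control and 12.6, 14.0, 5.68, 9.54 and 9.96 CPM in Jag antibody mice, so 2 control mice were above all Jag antibody mice and control mouse 2 was below them. Without control mouse 2 the 5 d difference was -0.92 and was called (adjusted p = 0.0435), and without control mouse 3 it was -0.37 (adjusted p = 0.58). The change between the 2 times was 1.29 (SE 0.45, adjusted p = 0.11) and not called, in a test that called 1.29% of all genes; without control mouse 2 at 5 d its adjusted p was 0.0231. At 5 d muscle RNA and the mitochondrial share (18.0% ± 2.62 with the Jag antibodies against 13.8% ± 2.46, SD, n = 5, exact p = 0.00794) also separated the groups. Of 6 fibroblast markers 3 were called lower with the Jag antibodies at 5 d, and their summed CPM was 733 to 1471 against 1279 to 4944 (exact permutation p = 0.0238, adjusted 0.0794). The part of these measures was not tested. In the fit with the muscle score as a covariate none of the 9 was called at 5 d, and their median difference was 0.02.

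Apln at 15 h is the member with the widest spread. The 5 control mice measured 5.41, 87.0, 67.6, 2.34 and 13.8 CPM and the 5 Jag antibody mice 6.31, 3.80, 31.6, 2.67 and 17.6 CPM. Control mice 2 and 3 were above all others, the groups overlapped, and the difference of -1.51 (SE 0.65) was not called (adjusted p = 0.307). Without these 2 mice its sign turned, to 0.81 (SE 0.61, adjusted p = 1). The same 2 mice were the highest of the group for Esm1 and for other genes of vessel growth and of myeloid cells. Angpt2, the angiopoietin that destabilises vessels, measured 2.54, 22.8, 15.5, 3.65 and 5.40 CPM in control mice 1 to 5. Pgf, placental growth factor, measured 2.60, 66.2, 46.4, 1.77 and 7.11 CPM, and Lyz2, lysozyme of myeloid cells, 242, 2505, 2128, 201 and 564 CPM. Other genes were low in these 2 mice: Tek measured 43.5, 21.3, 30.8, 60.6 and 44.9 CPM, Vegfa 558, 260, 425, 634 and 611 CPM and the brown fat gene Ucp1 3554, 554, 1323, 3671 and 2465 CPM. Cdh5 at 69.3, 97.2, 112, 96.0 and 84.1 CPM and Pecam1 at 105, 142, 162, 121 and 118 CPM were highest in mice 2 and 3 by a small margin. Whether the myeloid RNA and the apelin transcript share a source in these 2 mice was not tested.

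**Figure D4:**
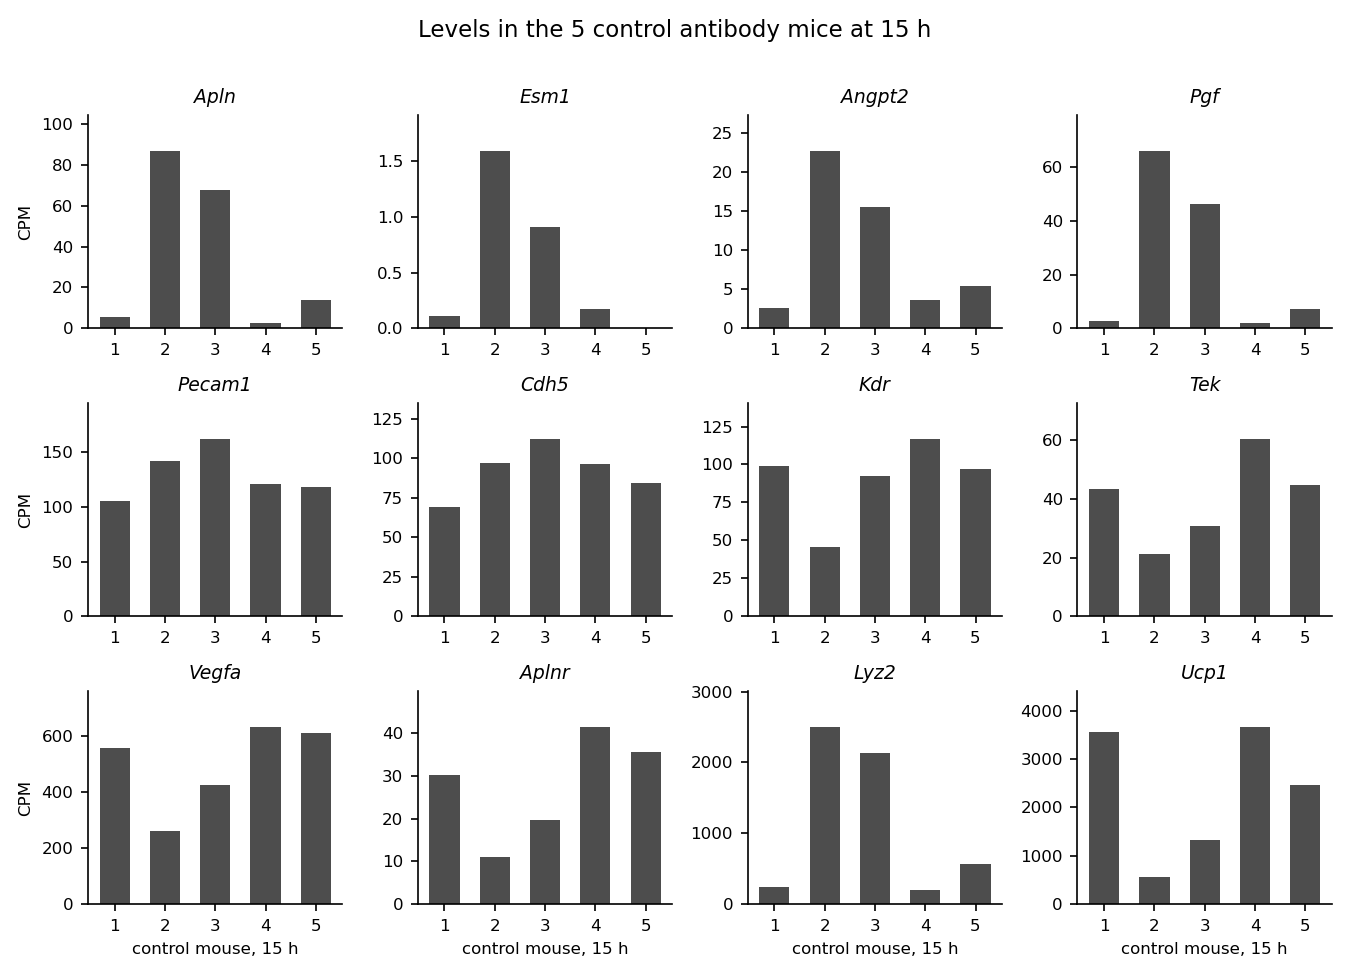
CPM (vertical axes from 0) of 12 genes in each of the 5 control antibody mice at 15 h, 1 bar per mouse. Apln, Esm1, Angpt2, Pgf and Lyz2 are high in mice 2 and 3, while Tek, Vegfa, Aplnr and Ucp1 are lowest in mouse 2 and next lowest in mouse 3.

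Over time in control mice, Apln was called lower at 5 d and 7 d, and Plvap was called higher at 5 d alone. Apln at 5 d measured 5.42, 5.96, 6.22, 2.96 and 1.76 CPM in control mice, against the 15 h values above (-2.97, SE 0.69, adjusted p = 0.00177), and at 7 d the difference from 15 h was -2.86 (SE 0.69, adjusted p = 0.00118). Both rest on mice 2 and 3: without them the differences were -0.60 (adjusted p = 0.495) and -0.55 (adjusted p = 0.519). Plvap measured 5.68, 8.99, 5.90, 5.87 and 5.06 CPM at 15 h and 13.3, 5.33, 27.8, 10.2 and 24.1 CPM at 5 d (1.35, SE 0.32, adjusted p = 0.00202), with 4 of 5 mice above all at 15 h. With length and GC offsets the Plvap difference was 0.64 (adjusted p = 0.106), and at 7 d the gene was near its 15 h level (0.12, SE 0.32, adjusted p = 0.786). With the compared groups alone neither 5 d call was kept (Apln -2.90, adjusted p = 0.0725, and Plvap 1.43, adjusted p = 0.0676). These calls are 2 of 9 genes at 5 d, beside 36.4% of all tested genes (16.2% higher, 20.1% lower), and 1 of 9 at 7 d, beside 45.1% (23.5% lower). Calls were thus no more frequent among the 9 genes than among all tested genes.

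Cdh5 had higher means at 5 d than at 15 h under both antibodies and did not pass the threshold in either. In control mice at 5 d it measured 197, 101, 217, 167 and 47.1 CPM, spread wider than the 69.3 to 112 CPM at 15 h (0.67, SE 0.30, adjusted p = 0.075). Mice 2 and 5, the lowest, are among the 3 libraries with the lowest length slope, and leaving out those 3 libraries gave 1.15 (adjusted p = 0.00645). In Jag antibody mice Cdh5 measured 67.7, 91.3, 85.8, 68.9 and 97.8 CPM at 15 h and 106, 98.2, 208, 125 and 197 CPM at 5 d. All 5 later mice were above the earlier ones, by the smallest margin of 98.2 against 97.8 CPM (0.84, SE 0.30, adjusted p = 0.0546). Groups were apart and higher in this comparison for 7.24% of all tested genes. None of the 9 was called over time in Jag antibody mice, at 5 d (14.5% of all genes called) or 7 d (18.3%). At each time 1 had an unadjusted p under 0.05, a threshold for which no share of all genes is given here.

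Within groups, most of the 9 genes were high or low in the same mice. After group means were subtracted, Cdh5 and Flt4 had the highest correlation of the 36 pairs over the 40 libraries (r = 0.91), followed by Kdr and Flt1 (0.87) and Cdh5 and Efnb2 (0.86). The median r was 0.63 and 22 pairs were over 0.5. With each library's length and GC trends subtracted the median was 0.50, with 19 pairs over 0.5. Plvap and Apln stood aside: the correlation of a gene with the mean of the other 8 was 0.94 for Cdh5, 0.86 for Flt4, 0.85 for Pecam1, 0.84 for Efnb2, 0.80 for Flt1, 0.78 for Kdr and 0.64 for Tek, but 0.29 for Apln and -0.12 for Plvap. The spread of Apln was widest in the 15 h groups (SD of log2 CPM 2.24 in control and 1.48 in Jag antibody mice). Its r includes control mice 2 and 3 at 15 h, and a value without them is not given here. All points share library, depth and composition of the tissue piece, so these r are descriptions without a test.

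The genes whose within-group pattern was most like the mean of the 9, among 12131 others, were led by She (r = 0.93), Shroom4, Arhgap31, Podxl, Plekhg1, Pcdh1, Mmrn2, Zfp366 and Trim56 (0.89). Mmrn2, an extracellular matrix protein of endothelial cells, is the single one of them in the endothelial lists examined, and Podxl encodes podocalyxin, a sialomucin of the vessel surface. Other genes of those lists were less alike. The pan-endothelial list ran from 0.90 for Mmrn2 to -0.26 for Cd34. The list of capillary and lipid-handling endothelium ran from 0.66 for Btnl9 to -0.48 for Rgcc. The 10 genes most alike had a median exonic length of 8768 bases, against 3810 for the tested genes. With the length and GC trends subtracted, Mmrn2 was first (r = 0.90), Plekhg1 moved to rank 12, and Erg, an endothelial transcription factor, and Cyyr1 were among the first 10.

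Lists of further vascular genes place the hormone result. Of 60 tested genes in 8 endothelial and angiogenic lists, 28 were higher and 7 lower with hormone under the control antibody, that is 58.3% called, and the median difference was 0.68. Over all tested genes 43.2% were called (20.3% higher, 22.9% lower) and the median was 0.04, which is the background for the list counts that follow. List counts are without the length and GC offsets unless stated, although the length slope moved with the hormone. All 8 tip cell and sprouting genes were higher, with a median of 1.44. They included Nid2, a basement membrane protein (2.37, SE 0.29, adjusted p = 1.01e-06), Col4a1, a collagen IV chain (1.74, SE 0.31, adjusted p = 6.86e-05), and the Notch ligand Dll4 (0.97, SE 0.29, adjusted p = 0.0073). Fibroblasts also make these matrix proteins, and the fibroblast sum given above moved the same way. The myeloid sum did too, and its part was not tested. At another time and without hormone, control mice 2 and 3 at 15 h had the highest Cxcr4, Adm, Col4a1 and Lamb1 of their group. Nid2 was lowest in them, and Dll4, Unc5b and Col4a2 were neither. These 2 mice differed from their group in brown fat RNA too (Ucp1 at 554 and 1323 CPM). Their values therefore cannot assign the hormone difference to a cell type. Apln and Esm1, the tip cell products named at the start, are outside this list and were not called (adjusted p = 0.0577, and 0.139 without the filter). The Apln estimate was 1.54, and its call depended on the fit. It was called by DESeq2 (adjusted p = 0.0309) and not with the length and GC offsets (adjusted p = 0.0596). Aplnr, the apelin receptor, had the largest called difference of these lists at 2.57 (SE 0.40, adjusted p = 1.61e-05).

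Among the ligands and co-receptors 4 of 10 were higher (Aplnr, Angpt2, Nrp1 and Nrp2) and Vegfb was lower (-0.99, SE 0.29, adjusted p = 0.00642). Vegfa, the main ligand of Kdr, was not called (0.06, SE 0.24, adjusted p = 0.864). Venous genes were higher in 4 of 5, among them Vwf, the clotting factor stored in endothelial cells (1.52, SE 0.33, adjusted p = 0.000526). Arterial genes were split, 1 of 6 higher (Sema3g) and 1 lower (Bmx). Of 5 tested lymphatic genes 1 was higher (Lyve1, which macrophages also express), and 2 of 3 genes of activated endothelium were higher (Vcam1 and Icam1).

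Not all endothelial genes went the same way. Of 16 pan-endothelial genes 8 were higher, among them Mmrn2 (1.51) and the receptor gene Tie1 (1.22), but Emcn, the endothelial sialomucin endomucin, was lower (-1.08, SE 0.19, adjusted p = 6.03e-05), as was Egfl7 (-0.79, SE 0.26, adjusted p = 0.0132). Of 7 genes of capillary and lipid-handling endothelium none was higher and 3 were lower: Car4 (-0.68), Rgcc (-0.74) and Gpihbp1, which carries lipoprotein lipase across the capillary wall (-0.71, adjusted p = 0.0144). This list had a median of -0.68, and with length and GC offsets a median of 0.04 with 1 called in each direction. With the same offsets 8 pan-endothelial genes were higher and 3 lower, and the 8 tip cell genes were still called higher.

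**Figure D5:**
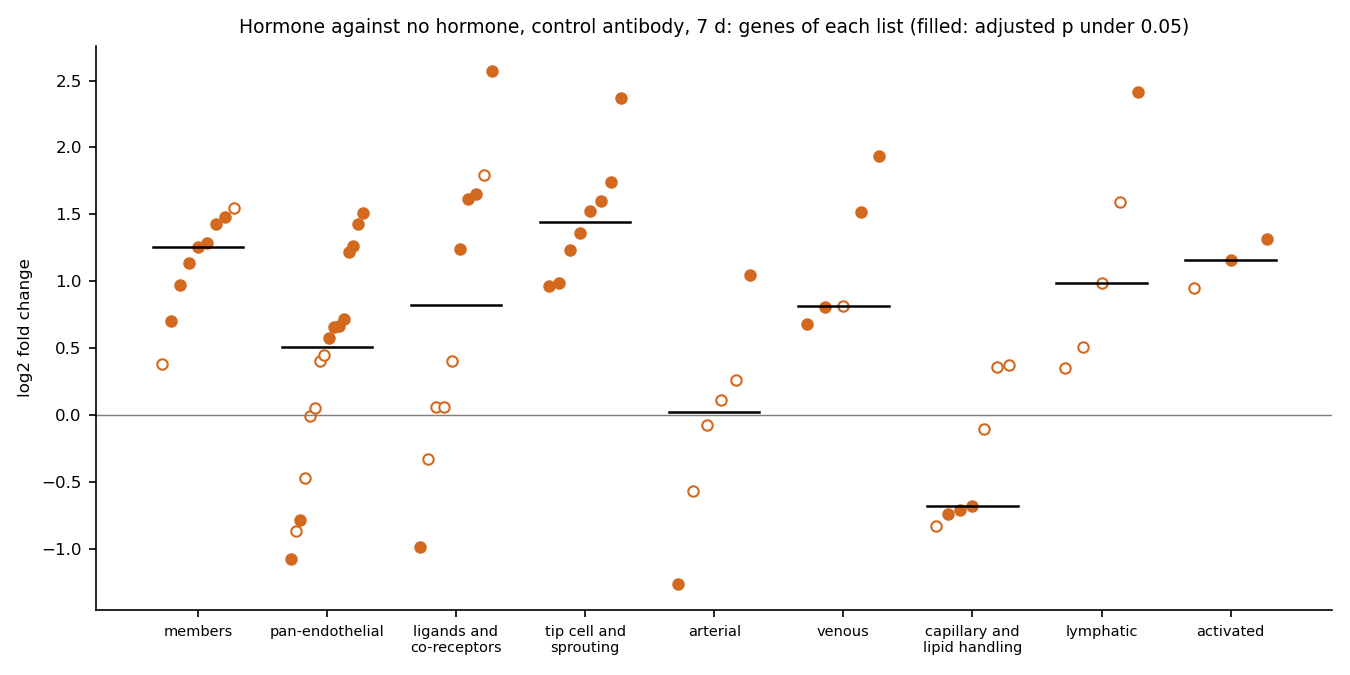
Log2 fold change with hormone under the control antibody at 7 d (vertical axis) of each tested gene of the 9 genes described and of 8 further vascular lists; filled points have adjusted p under 0.05 and black lines are list medians. All 8 tip cell and sprouting genes are filled and above 0, while 3 capillary genes are filled and below 0.

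Under the Jag antibodies 8 of the 60 genes were higher with hormone and none lower (13.3% called), beside 4.29% higher and 5.21% lower over all tested genes, and the median was 0.41. They were Cd34 and Mmrn2 of the pan-endothelial list, Aplnr (2.02, SE 0.39, adjusted p = 0.00101) and Angpt2, and Nid2, Col4a1, Col4a2 and Lamb1 of the tip cell list. None of the venous or capillary genes was called there, and no gene of the 60 was called in the interaction. The antibody itself changed few of the 60: 0 higher and 1 lower at 15 h, 2 and 1 at 5 d, 1 and 1 at 7 d, and 1 and 0 in mice given hormone, that is 1.67%, 5%, 3.33% and 1.67% beside 1.14%, 8.02%, 2.5% and 1.14% of all tested genes. At 7 d Emcn was lower with the Jag antibodies (-0.89, SE 0.19, adjusted p = 0.00829) with the 2 groups apart, and with hormone Car4, a capillary carbonic anhydrase, was higher (0.81, SE 0.21, adjusted p = 0.0431). Emcn ran from 54.7 to 88.2 CPM in the control mice at 7 d and from 28.3 to 52.4 CPM in the Jag antibody mice, and in the other 6 groups no mouse was above 55.8 CPM. The lower Emcn stood beside the lower pericyte marker sum given above, whose part was not tested. In the mice given hormone, where Car4 differed, the pericyte and smooth muscle sum was 238 to 382 CPM with the Jag antibodies against 578 to 880. The fibroblast sum was 798 to 2075 against 2190 to 4506 CPM (exact permutation p = 0.00794, adjusted 0.0345, for both sums). The mitochondrial share was 16.4% ± 1.06 against 12.8% ± 2.03 (SD, exact permutation p = 0.0159). Their part in Car4 was not tested. At 5 d Vegfd, a ligand of Flt4, was lower with the Jag antibodies, at 1.95 to 3.56 against 5.02 to 6.81 CPM (-1.28, SE 0.30, adjusted p = 0.00934). The fibroblast markers and muscle RNA given above for 5 d had lower summed levels in the same group, and their part was not tested.

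Over time the share of the 60 genes that was called was near the share over all tested genes. In control mice 14 were higher and 7 lower at 5 d than at 15 h (35% called, beside 36.4% of all genes), and 16 higher and 11 lower at 7 d (45% beside 45.1%). In Jag antibody mice the counts were 8 and 2 at 5 d (16.7% beside 14.5%) and 7 and 3 at 7 d (16.7% beside 18.3%). Hey1, a transcription factor induced by Notch, was higher at 7 d than at 15 h under both antibodies, by 1.67 in control (SE 0.28, adjusted p = 3.15e-05) and 1.41 in Jag antibody mice (SE 0.28, adjusted p = 0.0012). It measured 1.99 to 3.24 CPM at 15 h and 4.11 to 11.5 CPM at 7 d in control mice, and 2.04 to 2.55 and 4.65 to 8.62 CPM in Jag antibody mice. Angpt1, the activating ligand of Tek, was lower at 7 d than at 15 h under both, by -1.84 (adjusted p = 5.21e-05) and -1.51 (adjusted p = 0.00198) on the log2 scale. Sox18, an endothelial transcription factor, was higher at 5 d under both, by 1.47 (adjusted p = 0.00179) and 1.01 (adjusted p = 0.042). Other measures moved over time. The mitochondrial share was 23.5% ± 2.79 in control mice at 15 h, 13.8% ± 2.46 at 5 d (exact permutation p = 0.00794) and 20.0% ± 4.05 at 7 d (exact permutation p = 0.151; SD, n = 5). In Jag antibody mice it was 25.5% ± 2.45 at 15 h, 18.0% ± 2.62 at 5 d and 17.2% ± 3.77 at 7 d (exact permutation p = 0.00794 for both later times). In control mice at 7 d against 15 h the length slope was lower (-0.202 against 0.0862), the summed brown adipocyte markers were higher (14517 to 32238 against 2501 to 10727 CPM) and the myeloid sum was lower (155 to 361 against 386 to 4580 CPM), each at exact permutation p = 0.00794 (adjusted 0.0345). In Jag antibody mice at 7 d the length slope (-0.0573 against 0.0769) and the fibroblast sum (452 to 917 against 930 to 1450 CPM) were lower than at 15 h. Both had the same exact permutation p and adjusted p. In control mice at 5 d the fibroblast sum was higher than at 15 h (1279 to 4944 against 726 to 1346 CPM, exact permutation p = 0.0159, adjusted 0.0567). The part of these measures was not tested.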

How the data were processed

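The authors deposited whole-number counts per Ensembl gene, 1 column per mouse, and the submitters' processing notes name GSNAP and limma; the genome build, counting program, use of strand and versions are not given in the sources used here. Per the labels, RNA was column-purified after Trizol and read as 50-base single ends. The analysis of these counts used R 4.3.3 and edgeR 4.0.16: filterByExpr over the 8 groups (17079 genes), TMM scaling, 1 robust quasi-likelihood fit of all 40 mice, each group with its own mean, and Benjamini-Hochberg adjustment over all genes at 0.05. There were 10 comparisons of 2 groups and 3 interactions; those that share a control group share its mice. Log2 CPM values carry a prior count of 2, and CPM, RPKM and their ranges use TMM-scaled totals.

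Symbols came from a table that matched 52403 of 52636 identifiers, and lengths and GC content from GENCODE M21. The offsets are trends of each library on log2 exonic length and GC content (splines with 4 degrees of freedom). Exact two-sided permutation tests (252 arrangements of 5 and 5 mice) were used for library measures. On counts simulated for the hormone comparison in control mice (16837 genes), the test recovered 48% of genes changed by 1 on the log2 scale. It recovered 93% of those changed by 2 and called 9 unchanged genes. With a trend on exonic length alone simulated (16828 genes) it recovered 45% and 86% and called 30 unchanged genes. With the offsets the values were 48%, 88% and 5. No trend on GC content was simulated, so the GC part of the offsets was not tried. In each run 100 genes were changed by 1 and 100 by 2, in equal numbers up and down. In the real comparison 43.2% of all tested genes were called. The simulated setting is therefore unlike the data, and its recovery and false calls are not rates for the real comparison.

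The 10 genes and all lists were chosen with earlier results of these data known. Beyond the 10, genes are named by a rule: per comparison at most 3 called genes in each direction with the largest difference, among those whose groups did not overlap and whose log2 CPM averaged 1 or more, and the 10 genes most alike, of which 1 is not reported here. Other list genes named, and those shown for the 15 h control mice, were chosen after their values were seen. Alternatives were RLE size factors, no filter, a muscle score covariate, the offsets, DESeq2 1.42.0, the compared groups alone, a replicate block and leaving out each mouse. Mice are separate samples by label; where no more is stated, p-values measure the spread between these libraries.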

Additional observations from a re-analysis of the deposited data

Results flagged for a closer look

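In 9 of 80 sets of 5 mice (10 genes in 8 groups) 1 mouse lay far from the other 4 by Dixon's criterion at 95%, where chance gives about 1 in 20, that is 4. Control mouse 2 at 15 h was far below its group for Kdr (log2 CPM 5.51, next 6.53) and Flt1 (5.26, next 5.76) and far above it for Plvap (3.18, next 2.58), and control mouse 1 at 15 h was low for Efnb2 (3.20, next 3.53). Control mouse 4 at 7 d, the library with the lowest length slope, was low for Efnb2 (1.65, next 3.09). With hormone, control mouse 1 was low for Apln (2.58, next 3.87) and Jag antibody mouse 9 was low for Apln (3.43, next 3.79). The 2 remaining cases are Esm1 at single counts: control mouse 2 at 7 d with 1 count where the others had 0 (log2 CPM -2.44), and Jag antibody mouse 10 with hormone with 1 count (-2.72) where the next had 4.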

How the results depend on the processing

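Counts below are of genes called among the 9 tested (10 where Esm1 is also tested, that is without the filter and in some comparisons by DESeq2). With length and GC offsets the hormone count under the control antibody was 4 in place of 7; it was 5 with the replicate block plus offsets, 6 without the filter or without the 3 libraries of lowest slope (Kdr lost in both), and 8 with DESeq2, the muscle score or the compared groups alone (Apln gained). Under the Jag antibodies, where it was 1, it was 0 without the filter, 2 with the offsets and with the replicate block plus offsets, and 3 with DESeq2 and with the compared groups alone. The share of all tested genes called higher also moved with the setting. Under the control antibody it was 16.5% with the offsets and 20.3% without. Under the Jag antibodies it was 4.93% and 4.29%. Shares under the other settings are not given here, so the counts describe the 9 genes only. The 7 d antibody count of 0 became 1 with DESeq2. For 5 d against 15 h in control mice the count of 2 became 1 with offsets, with block plus offsets and without control mice 2 and 3 at 15 h, 0 with the compared groups alone, and 3 without the filter or by DESeq2 (Esm1 gained) and without the 3 libraries of lowest slope (Cdh5 gained). For 7 d against 15 h in control mice the count of 1 became 2 without the filter, with DESeq2 and with block plus offsets, and 0 without control mice 2 and 3. For 5 d against 15 h in Jag antibody mice the count of 0 became 1 with the replicate block, DESeq2 or the compared groups alone, each time through Cdh5. The cause was not tested. Leaving out each mouse in turn gave 6 to 9 for hormone in control and 0 to 4 in Jag antibody mice, 0 to 1 for the antibody at 5 d, at 7 d and for the change between them, and 2 to 3 for 5 d against 15 h in control mice. None of the differences called in either fit changed sign; Apln with the Jag antibodies at 15 h, called in neither, went from -1.51 to 0.81 without control mice 2 and 3. Leaving out the 3 libraries of lowest slope, or control mice 2 and 3 at 15 h, was chosen after seeing the data. Over single genes and settings other than leaving out 1 mouse, 940 results kept their side of the threshold, 15 lost the call and 17 gained it. Title numbers are of different animals, so they do not pair the mice. Over 30 same-number pairs the correlation of deviations ran from -0.337 to 0.731, and 17 were over 0.1. In 12 a mouse correlated best with its own number, where chance gives 1 in 5. Whether mice of the same number shared a batch or order of handling was not tested. The replicate block alone gave 8 for hormone in control mice, with Apln called (1.69, adjusted p = 0.0255). No paired analysis was possible because control mice are numbered 1 to 5 and Jag antibody mice 6 to 10, for the antibody comparisons. Depth limits Esm1, with at most 36 counts in a library.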
